A study of Mus musculus with 10 samples.

Results

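The molecules with which regulatory T (Treg) cells suppress other cells and repair tissue were followed here at the level of their chromatin. They were the 9 genes Il10, Ebi3, Il12a, Tgfb1, Fgl2, Gzmb, Areg, Entpd1 and Nt5e. A region of open chromatin was counted to 1 of these genes when it overlapped the gene's protein-coding span in GRCm38, or otherwise when that span was the nearest within 100 kb. This gave 76 of the 77076 regions in the deposited table. All 76 passed the filter on low counts. Entpd1 had 17 regions, Nt5e 15, Il12a 14, Il10 12 and Gzmb 10. Tgfb1 and Areg had 3 each, and Ebi3 and Fgl2 had 1 each. The gene given to a region is a position and not a shown target.

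Treg cells hold back other immune cells by several routes. They secrete cytokines (interleukin-10, the interleukin-35 pair made by Ebi3 and Il12a, and transforming growth factor beta), release FGL2 and granzyme B, and turn extracellular ATP into adenosine through the surface enzymes CD39 and CD73. Amphiregulin, the product of Areg, is their best known repair factor and acts on epithelial cells. Effector Treg cells are the activated pool that carries many of these functions in tissues, while central Treg cells circulate through lymphoid organs.

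The assay was ATAC-seq, in which a transposase cuts open DNA and marks it for sequencing. The mouse cells were labelled Treg, were sorted out of spleen and lymph nodes, and had developed in mixed bone marrow chimeras, hosts given marrow of more than 1 donor. The study asked how protein prenylation bears on the making and upkeep of effector Treg cells. There were 2 libraries of Fntb-deficient effector Treg cells (FntbKO eTreg), 2 of Fntb-deficient central Treg cells (FntbKO cTreg), 3 of wild-type effector Treg cells (WT eTreg) and 3 of wild-type central Treg cells (WT cTreg). Fntb encodes the beta subunit of the farnesyltransferase, which attaches a farnesyl lipid to proteins. The labels used here do not give the Fntb allele, the Cre driver, the ages, the donor mix or whether animals were pooled. They also do not say that the libraries came from separate animals, so p-values measure the spread between these libraries, which may be technical.

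The 10 libraries held between 5058328 and 15328775 counts. The region at the start of the Fntb span (chromosome 12, 76837192 to 76837915) averaged 9.54 ± 2.93 CPM (counts scaled to a common library size) in FntbKO eTreg and 29.9 ± 0.479 CPM in WT eTreg, and 12.1 ± 1.4 CPM in FntbKO cTreg against 33 ± 3.81 CPM in WT cTreg (SD, n = 2 for each FntbKO and 3 for each WT group). Regions of the Treg markers Foxp3, Il2ra, Ctla4, Ikzf2, Tnfrsf18 and Ikzf4 summed to 1325 to 1542 CPM per library. Of the myeloid markers, Lyz2, Csf1r and Adgre1 had no region, and of the B cell markers Ms4a1 and Cd79b had none. On the first principal component FntbKO cTreg 1 lay at -155.3, the lowest of the 10, and FntbKO cTreg 2 at -67. In a group of 2 libraries neither can be named as the one apart. WT cTreg 2 lay at 9, the highest of the cTreg libraries, against -56.7 and -38.1 for WT cTreg 1 and 3. WT eTreg 3 lay at 130.2, the highest of the 10, against 83.5 and 65 for WT eTreg 1 and 2.

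Promoter DNA is printed for Gzmb, Nt5e and Areg, because the regions at the starts of these genes carry results given further on. Each sequence is the 250 bases before the annotated start, read 5′ to 3′ on the gene's strand, from RefSeq for GRCm38.p6. Capitals mark the motif matches found on either strand.
Gzmb promoter, chr14:56262335-56262584, minus strand: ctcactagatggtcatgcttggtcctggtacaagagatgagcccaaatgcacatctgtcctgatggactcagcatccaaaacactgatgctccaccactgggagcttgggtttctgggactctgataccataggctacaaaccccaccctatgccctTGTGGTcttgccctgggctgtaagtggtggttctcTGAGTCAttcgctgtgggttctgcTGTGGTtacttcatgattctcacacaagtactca
Nt5e promoter, chr9:88327359-88327608, plus strand: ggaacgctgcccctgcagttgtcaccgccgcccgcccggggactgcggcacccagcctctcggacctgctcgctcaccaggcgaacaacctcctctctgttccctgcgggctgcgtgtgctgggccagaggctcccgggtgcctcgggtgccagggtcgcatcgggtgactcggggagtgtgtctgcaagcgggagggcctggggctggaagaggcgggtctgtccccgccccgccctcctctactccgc
Areg promoter, chr5:91139349-91139598, plus strand: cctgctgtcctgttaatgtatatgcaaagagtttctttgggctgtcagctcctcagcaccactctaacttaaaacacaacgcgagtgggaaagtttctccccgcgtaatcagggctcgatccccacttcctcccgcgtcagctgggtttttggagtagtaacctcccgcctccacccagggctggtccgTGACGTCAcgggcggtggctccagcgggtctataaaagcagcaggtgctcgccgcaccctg
The Gzmb promoter held an AP-1 motif (TGANTCA) 58 bases before the start and RUNX motifs (TGTGGT) at 93 and 34 bases. The Areg promoter held a full cyclic AMP response element (CRE, TGACGTCA) 61 bases before the start. None of these matches overlapped another. The Nt5e promoter held no match. Of all 32817 promoters of this length in the table, 6.75% held AP-1, 14% RUNX and 1.55% the CRE. The motifs CTTTGA (TCF/LEF, 13.8% of promoters), TTCNNNGAA (STAT, 7.01%) and TGGAAA (NFAT, 18.6%) had no match in these 3 windows. A match is a stretch of letters and not a shown binding site. The Nt5e promoter was rich in G and C, at 72% of its bases, compared with 57.2% for Areg, 50.8% for Gzmb and a median of 52.4% over all promoters. A promoter sequence was matched for 8 of the 9 genes, all but Il10.

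Per base, the start of Entpd1 was the most open of the members. Start regions covered part of the 250 bases before to 50 bases after an annotated start, and their level is given as CPM per kb of region. The Entpd1 start averaged 136.0 CPM per kb (lowest 118.1, highest 155.2 over the 10 libraries). The Nt5e start followed at 45.6 CPM per kb (31.9 to 57.6), and the Tgfb1 start at 33.1 CPM per kb (25.1 to 42.1). Gzmb had 23.8 CPM per kb (11.1 to 36.7), Areg 22.5 (13.2 to 35.9), Fgl2 22.5 (15.5 to 28.1), Ebi3 12.5 (5.51 to 20.9) and Il12a 9.16 (5.87 to 10.6). Only the range of Entpd1 lay clear of the next gene in this order, and every other pair of neighbours overlapped in range. The Entpd1 start region also overlapped Tctn3, the Ebi3 region Zfp119b and the Fgl2 region Ccdc146, so their counts cannot be given to 1 gene alone. The Il12a region covered only the second of its 2 annotated starts. No region covered either end of the Il10 span.

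**Figure D1:**
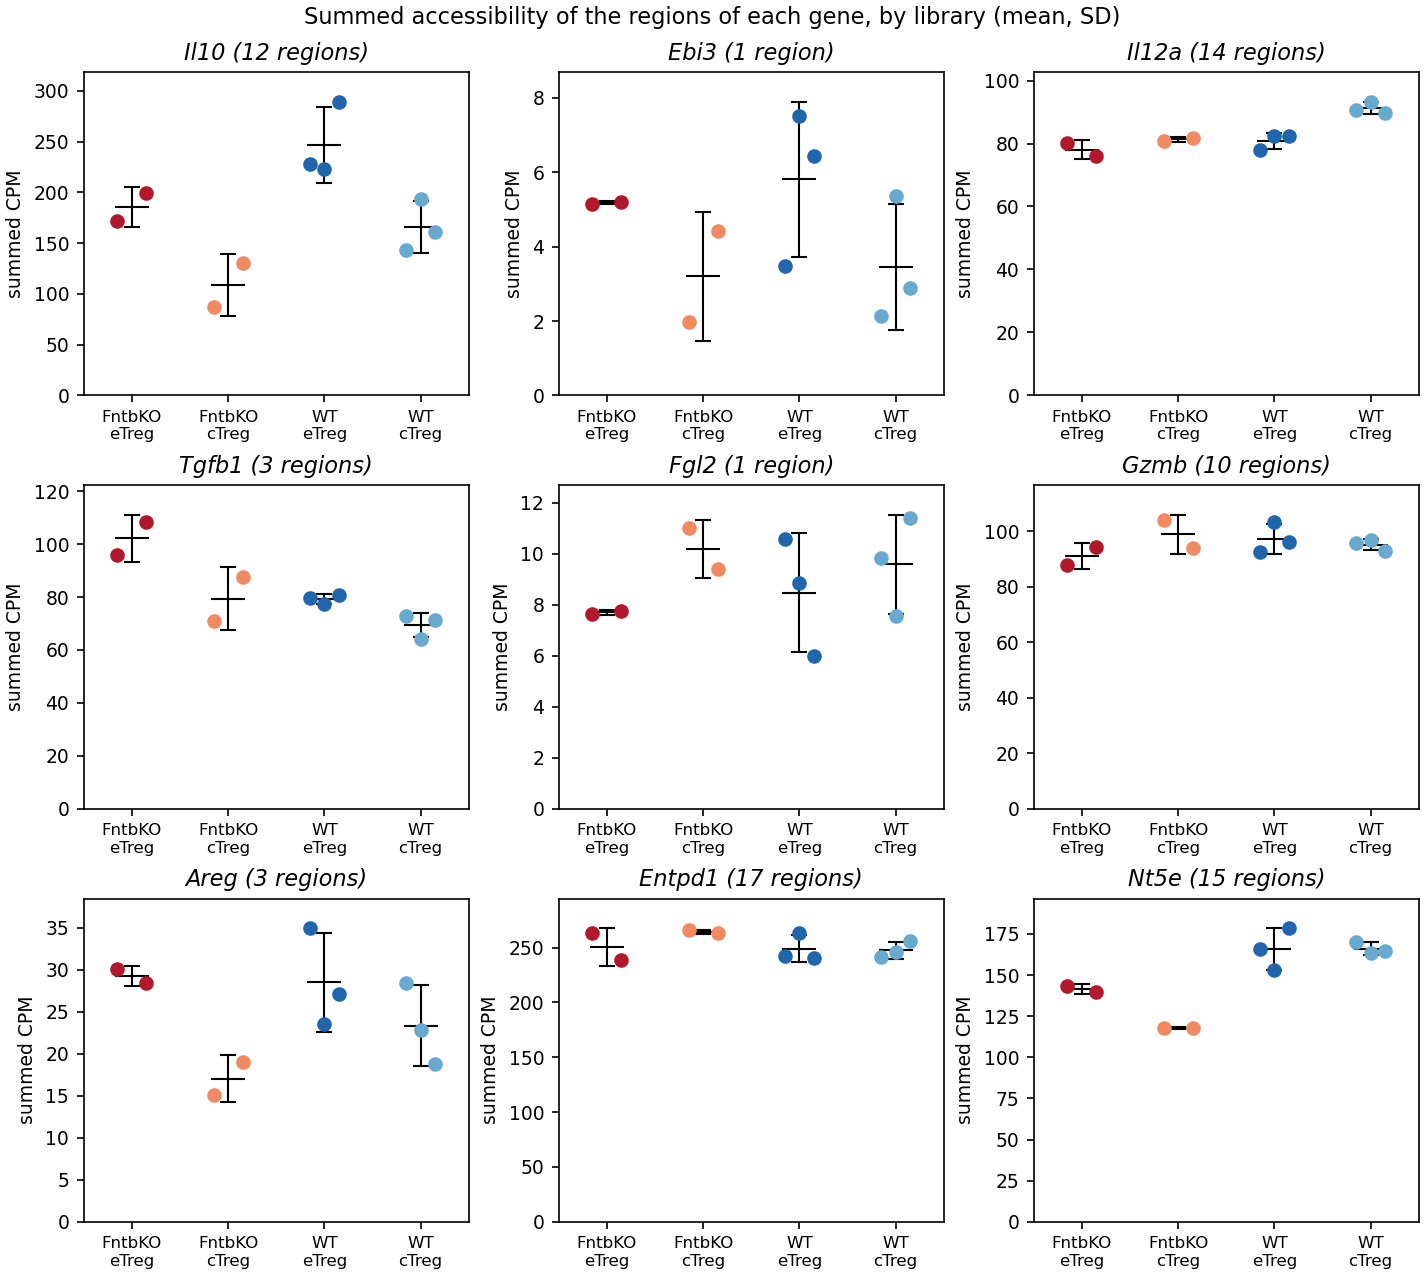
Summed accessibility of all regions of each of the 9 genes, in CPM of the summed counts (y axis, from 0), by group (x axis). Points are libraries, and the bars give the mean and SD of 2 FntbKO or 3 WT libraries. Il10 lies highest in WT eTreg and lowest in FntbKO cTreg, and both FntbKO cTreg libraries of Nt5e lie below all others at 118.0 and 117.5 CPM.

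Between the subsets with Fntb present, several Il10 regions and the Gzmb start were more open in eTreg libraries. Single distal regions of Nt5e and Il12a differed in opposite directions. For WT eTreg over WT cTreg, 7 of the 76 regions were called at an adjusted p under 0.05, with 6 higher and 1 lower in WT eTreg. Over all 76216 tested regions 3.44% were called, 1.83% higher and 1.61% lower. The median log2 fold change of the 76 regions was 0.14, compared with -0.01 over all tested regions. In bulk libraries fewer cells with an open site and less opening per cell cannot be told apart. The 6 higher regions were 4 of Il10, 1 of Gzmb and 1 of Nt5e, and the lower one belonged to Il12a. The count of 7 rested on few libraries: it was 2 when WT eTreg 1 was left out, 0 when WT eTreg 3 was, 1 when WT cTreg 1 was and 0 when WT cTreg 3 was, settings in which 809, 543, 774 and 426 regions were called in all instead of 2623. With regions counted only up to 10 kb from a span it was 2.

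Without Fntb, only Il10 regions were called between the subsets. For FntbKO eTreg over FntbKO cTreg 2 of the 76 regions were called, both higher, compared with 1.35% of all tested regions (0.964% higher and 0.39% lower). The median log2 fold change was 0.21 for the 76 regions and -0.00 over all. No member region was called without FntbKO eTreg 1, without FntbKO eTreg 2 or without FntbKO cTreg 1, 1 was without WT eTreg 1, WT eTreg 3 or WT cTreg 3, and 4 were without FntbKO cTreg 2. DESeq2 called 4, and total-count scaling left 1.

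Between the genotypes, Nt5e was less open in FntbKO cTreg than in WT cTreg cells, and no member passed the test between the eTreg groups. For FntbKO cTreg over WT cTreg, 1 of the 76 regions was called, a lower region of Nt5e, compared with 0.568% of all tested regions, 0.19% higher and 0.378% lower. The median log2 fold change was -0.21 for the 76 regions and -0.01 over all. The count was 0 without FntbKO cTreg 1, 3 without FntbKO cTreg 2 and 2 without WT cTreg 1 or WT cTreg 2. For FntbKO eTreg over WT eTreg edgeR called 0 of the 76 regions, compared with 0.353% of all tested regions, while 16 had an unadjusted p under 0.05, as had 12.2% of all tested regions. DESeq2 also called 0. The smallest adjusted p was 0.0581, in a Tgfb1 region, and that region passed without FntbKO cTreg 1, WT cTreg 1 or WT cTreg 2. These comparisons share libraries with each other and are not independent.

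The subset difference was not shown to depend on Fntb for any member. The interaction of genotype and subset called 0 of the 76 regions in edgeR, with 6 at an unadjusted p under 0.05, and 0% of all tested regions, with 3093 regions or 4.06% at an unadjusted p under 0.05. DESeq2 also called 0. A p that misses the threshold does not show that the subset difference was alike in the 2 genotypes.

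**Figure D2:**
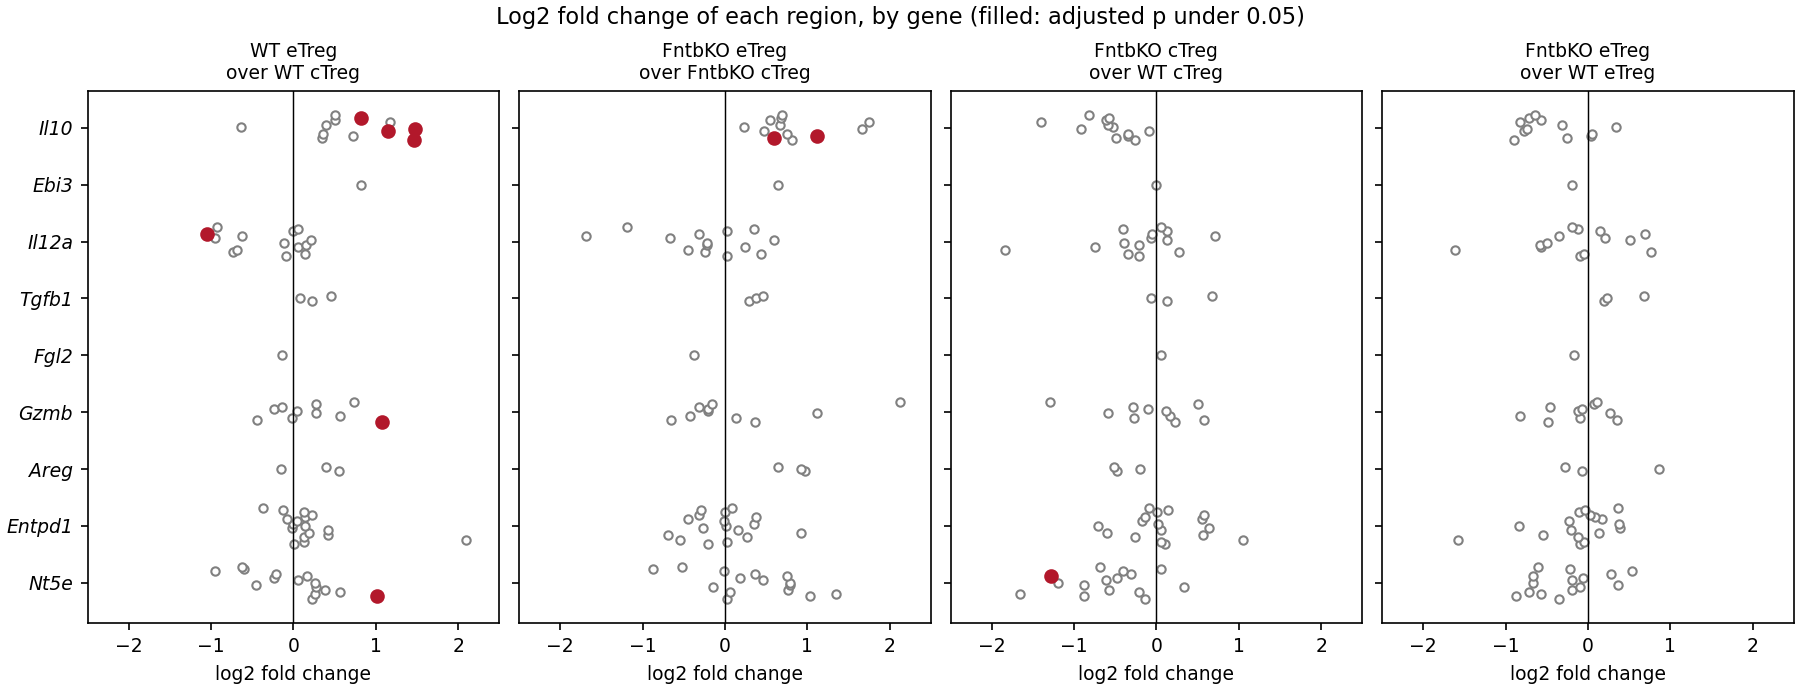
Log2 fold change (x axis) of each of the 76 regions, by gene (y axis), in the 4 pairwise comparisons named above the panels, where a positive value means higher in the group named first. Filled red points passed an adjusted p of 0.05 and open grey points did not. The filled points number 7, 2, 1 and 0 from left to right, and the Il10 row lies to the right of 0 in both subset panels except for 1 region.

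Il10 encodes interleukin-10, a cytokine that restrains macrophages and dendritic cells. Its span lies on chromosome 1 (gene 16153, 131019845 to 131024970). Of its 12 regions, 2 lay in the span, 8 on the lower-coordinate side up to 32.0 kb away and 2 on the higher-coordinate side. In WT cells 11 of the 12 had a positive log2 fold change for eTreg over cTreg, with a median of 0.62. In FntbKO cells all 12 were positive, with a median of 0.68. In 7 of the 12 regions all WT eTreg libraries lay above all WT cTreg libraries, compared with 10.7% of all tested regions. In 11 of the 12 both FntbKO eTreg libraries lay above both FntbKO cTreg libraries, compared with 24.2% of all. The 12 regions share 1 locus and the same libraries and are not independent.

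The Il10 region with the smallest p lay 23.1 kb from the span (130996373 to 130996771). It had 20.6 and 20.8 CPM in FntbKO eTreg, 7.65 and 11 CPM in FntbKO cTreg, 14.9, 17.4 and 29.0 CPM in WT eTreg, and 11.4, 12.2 and 12.9 CPM in WT cTreg. The eTreg libraries were above the cTreg libraries of the same genotype without overlap, and WT eTreg 3 was the highest of all. FntbKO eTreg over FntbKO cTreg gave a log2 fold change of 1.12 (SE 0.25, adjusted p = 0.0258). It was 0.72 for WT eTreg over WT cTreg, where the adjusted p of 0.051 missed the threshold and passed in 4 of 10 fits without 1 library, with halved counts, with the stricter filter and with DESeq2 size factors. The FntbKO call was lost without FntbKO eTreg 1, FntbKO eTreg 2 or FntbKO cTreg 1, with adjusted p of 0.105, 0.205 and 0.448, and also without WT cTreg 2 and FntbKO cTreg 1 together.

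The most covered Il10 region lay 25.7 kb from the span (130993613 to 130994149). It had 45.2 and 54.9 CPM in FntbKO eTreg, 26.4 and 39.4 CPM in FntbKO cTreg, 61.4, 56.3 and 63.1 CPM in WT eTreg, and 49.4, 48.8 and 43.4 CPM in WT cTreg. All FntbKO cTreg libraries were below every library of the other groups, and all WT eTreg libraries were above every other. It was called for FntbKO eTreg over FntbKO cTreg, at a log2 fold change of 0.59 (SE 0.15, adjusted p = 0.0453). This call was lost in 7 of the 10 fits without 1 library (FntbKO eTreg 1, FntbKO eTreg 2, FntbKO cTreg 1, each WT eTreg library and WT cTreg 3), with adjusted p between 0.0515 and 0.656, and the log2 fold change became 0.36 when FntbKO cTreg 1 was left out and 0.94 when FntbKO cTreg 2 was. The call was also lost with total-count scaling, with the compared groups only, and without WT cTreg 2 and FntbKO cTreg 1 together (adjusted p = 0.536). For FntbKO cTreg over WT cTreg the log2 fold change was -0.49 (SE 0.14, adjusted p = 0.107), not called. Without FntbKO cTreg 2 it was -0.84 with an adjusted p of 0.0126, and without FntbKO cTreg 1 it was -0.26.

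The other called Il10 regions passed between the WT subsets. The region 16.1 kb from the span (131003119 to 131003763) had 19.6 and 23.6 CPM in FntbKO eTreg, 3.14 and 9.59 CPM in FntbKO cTreg, 39.4, 25.4 and 45.1 CPM in WT eTreg, and 11.4, 17.2 and 11 CPM in WT cTreg. Its eTreg and cTreg libraries did not overlap in either genotype, and every FntbKO library was below every WT library of the same subset. WT eTreg over WT cTreg gave a log2 fold change of 1.48 (SE 0.34, adjusted p = 0.0487), and it was 1.66 for FntbKO eTreg over FntbKO cTreg (SE 0.44, adjusted p = 0.106). The WT call was lost when FntbKO eTreg 1 or 2, WT eTreg 1 or 3, or WT cTreg 1 or 3 was left out, with adjusted p between 0.0723 and 0.169. Total-count scaling also ended it. The FntbKO value ranged from 1.18 without FntbKO cTreg 1 to 2.79 without FntbKO cTreg 2, and it passed without FntbKO cTreg 2 (adjusted p = 0.000718), without WT eTreg 2 and under DESeq2 (adjusted p = 0.0425).

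Just beyond the span, 0.8 kb on the higher-coordinate side, the region 131025817 to 131026271 had 9.21 and 11.8 CPM in FntbKO eTreg, 6.29 and 6.93 CPM in FntbKO cTreg, 17.8, 16 and 18.7 CPM in WT eTreg, and 9.07, 11 and 9.71 CPM in WT cTreg. WT eTreg stood above all other libraries and FntbKO cTreg below all. WT eTreg exceeded WT cTreg by a log2 fold change of 0.82 (SE 0.19, adjusted p = 0.0176), lost without WT eTreg 1, WT eTreg 3, WT cTreg 1 or WT cTreg 3 at adjusted p between 0.0679 and 0.0958. Between FntbKO eTreg and WT eTreg it was -0.71 (SE 0.22, adjusted p = 0.151), not called.

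A pair of weaker Il10 regions was also called between the WT subsets. The region 32.0 kb away (130987568 to 130987854) had 4.0 and 3.74 CPM in FntbKO eTreg, 0.547 and 3.37 CPM in FntbKO cTreg, 5.66, 8.16 and 7.8 CPM in WT eTreg, and 2.51, 3.09 and 2.32 CPM in WT cTreg. Its log2 fold change for WT eTreg over WT cTreg was 1.46 (SE 0.38, adjusted p = 0.0328), lost without any 1 WT eTreg library, WT cTreg 1 or WT cTreg 3 at adjusted p between 0.058 and 0.158. The region 19.1 kb away (131000426 to 131000700) had 4.6 and 5.21 CPM in FntbKO eTreg, 3.01 and 4.02 CPM in FntbKO cTreg, 6.51, 6.87 and 12.4 CPM in WT eTreg, and 3.07, 5.67 and 2.96 CPM in WT cTreg. In both, the eTreg and cTreg libraries of each genotype did not overlap. The second had a log2 fold change of 1.15 (SE 0.32, adjusted p = 0.0417), lost without FntbKO eTreg 1 or 2, WT eTreg 1 or 3, or WT cTreg 1 or 3 at adjusted p between 0.0509 and 0.276.

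For FntbKO cTreg over WT cTreg all 12 Il10 regions had a negative log2 fold change, from -1.40 to -0.09 with a median of -0.55, and in 7 of them both FntbKO cTreg libraries lay below all WT cTreg libraries, compared with 14.9% of all tested regions. None of the 12 was called in edgeR or DESeq2, while 5 had an unadjusted p under 0.05 in edgeR, as had 12.4% of all tested regions. The lowest fold belonged to a region in the span (131021524 to 131021831), with 4.6 and 4.92 CPM in FntbKO eTreg, 1.09 and 1.62 CPM in FntbKO cTreg, 10.7, 3.68 and 11.5 CPM in WT eTreg, and 4.33, 3.09 and 3.8 CPM in WT cTreg. It is named for its fold, after its values were seen. Between FntbKO eTreg and WT eTreg 9 of the 12 were negative, with a median of -0.61.

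Summed over its 12 regions, Il10 had 171.4 and 199.6 CPM in FntbKO eTreg, 87.5 and 130.8 CPM in FntbKO cTreg, 227.6, 222.8 and 289.4 CPM in WT eTreg, and 143.7, 193.9 and 160.6 CPM in WT cTreg. Here CPM refers to the counts summed over genes. The subsets did not overlap within a genotype, and the genotypes did not overlap within a subset. The log2 fold change was 0.57 for WT eTreg over WT cTreg (SE 0.18, adjusted p = 0.172), 0.75 for FntbKO eTreg over FntbKO cTreg (SE 0.23, adjusted p = 0.171) and -0.58 for FntbKO cTreg over WT cTreg (SE 0.21, adjusted p = 0.193), none called. Without FntbKO cTreg 2 the last was -0.92 and passed at an adjusted p of 0.0399, and without FntbKO cTreg 1 it was -0.34. Both subset values passed in some fits: the WT one without FntbKO cTreg 1, without FntbKO cTreg 2 and with the compared groups only, and the FntbKO one without FntbKO cTreg 2 (adjusted p = 0.0201). Regions of the 4 myeloid markers that had any (Itgam, Cd14, Spi1 and Cebpa) summed to 97.7 to 98.2 CPM in FntbKO eTreg, 80.1 to 83.9 CPM in FntbKO cTreg, 131.3 to 137.4 CPM in WT eTreg and 88.1 to 117.6 CPM in WT cTreg. Of their 21 regions 4, or 19%, were called higher in WT eTreg than in WT cTreg, compared with 1.83% of all tested regions. FntbKO cTreg was lowest and WT eTreg highest for these markers as for Il10, and their part in the Il10 values was not tested. The genes with the most similar profile over the 10 libraries were Rgs8 and Stk32c, at a root mean square distance of 0.132 and 0.146 on the centred log2 scale, compared with a median of 0.497 over 3329 genes of like level.

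**Figure D3:**
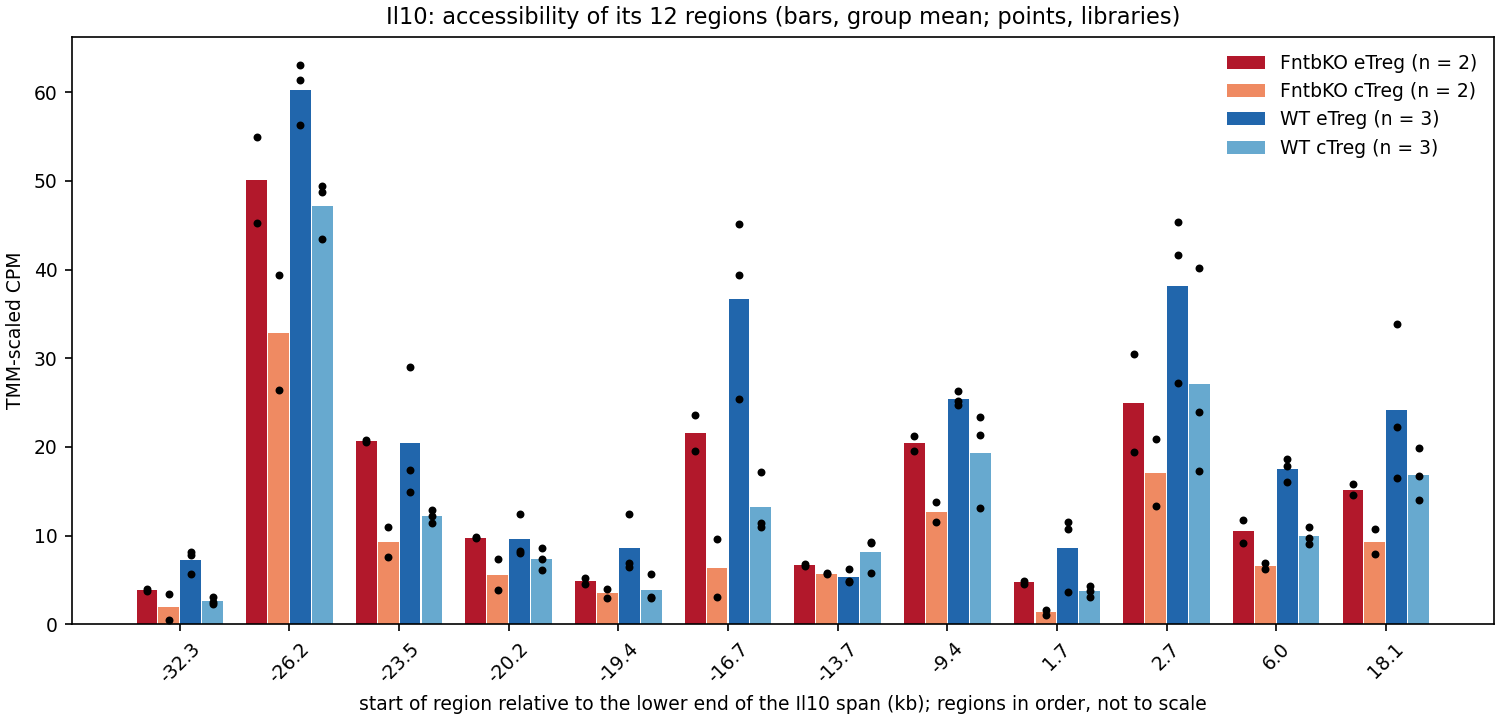
TMM-scaled CPM (y axis, from 0) of the 12 Il10 regions, in order along the chromosome and labelled by the distance of their start from the lower end of the Il10 span in kb (x axis, not to scale). Bars are group means of 2 FntbKO or 3 WT libraries and points are libraries. FntbKO cTreg has the lowest bar in 11 of the 12 regions, and WT eTreg the highest in 9.

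Ebi3 and Il12a encode the 2 chains of interleukin-35, and each chain also joins other partners in the interleukin-12 family. Ebi3 (chromosome 17, gene 50498) had 1 region, at its start (55952454 to 55952826), with 5.41 and 5.41 CPM in FntbKO eTreg, 2.05 and 4.54 CPM in FntbKO cTreg, 3.73, 7.77 and 6.95 CPM in WT eTreg, and 2.23, 5.5 and 2.96 CPM in WT cTreg. The WT subsets overlapped, and the FntbKO eTreg libraries were above the FntbKO cTreg libraries. The log2 fold change was 0.82 for WT eTreg over WT cTreg (SE 0.36, adjusted p = 0.221) and 0.64 for FntbKO eTreg over FntbKO cTreg (SE 0.43, adjusted p = 0.514), neither called.

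Il12a (chromosome 3, gene 16159, 68690644 to 68698550) had a called region far from its start. Its start region (68691127 to 68691732) covered the second of 2 annotated starts, and no region covered the first. It had 6.41 and 5.51 CPM in FntbKO eTreg and 3.55 and 4.99 CPM in FntbKO cTreg. The WT libraries had 6.02, 6.17 and 6.1 CPM in eTreg, and 5.3, 5.84 and 5.49 CPM in cTreg. The eTreg libraries were above the cTreg libraries in each genotype by a narrow gap, and no comparison called it. The called region lay 60.0 kb away on the higher-coordinate side (68758521 to 68758977), with 10.2 and 6.1 CPM in FntbKO eTreg, 9.3 and 10.2 CPM in FntbKO cTreg, 4.1, 6.97 and 3.22 CPM in WT eTreg, and 11.3, 8.77 and 10.2 CPM in WT cTreg. WT eTreg lay below WT cTreg without overlap, while the FntbKO subsets overlapped. Its log2 fold change for WT eTreg over WT cTreg was -1.05 (SE 0.27, adjusted p = 0.0297), lost without WT eTreg 1, WT eTreg 3, WT cTreg 1 or WT cTreg 3 at adjusted p between 0.115 and 0.163. Between FntbKO eTreg and FntbKO cTreg it was -0.31 (SE 0.31, adjusted p = 0.706), and the interaction was not called. The most covered Il12a region (68676740 to 68677437, 13.2 kb away) averaged 28.3 ± 3.15 CPM in FntbKO eTreg, 28.1 ± 0.353 CPM in FntbKO cTreg, 30.6 ± 0.782 CPM in WT eTreg and 32.8 ± 5.61 CPM in WT cTreg, with no call. The summed counts gave a log2 fold change of -0.17 between the WT subsets (SE 0.08, adjusted p = 0.243) and -0.16 for FntbKO cTreg over WT cTreg (SE 0.08, adjusted p = 0.286).

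Tgfb1 encodes transforming growth factor beta 1, a latent cytokine that drives Treg induction and restrains effector T cells. The smallest p of any member between FntbKO eTreg and WT eTreg belonged to it. The region 2.4 kb beyond the span (chromosome 7, gene 21803; 25707466 to 25708332) had 31.6 and 38.1 CPM in FntbKO eTreg, 22.0 and 28.4 CPM in FntbKO cTreg, 22.7, 20.5 and 22.6 CPM in WT eTreg, and 17.7, 12.7 and 16.8 CPM in WT cTreg. Every FntbKO library was above every WT library of the same subset. FntbKO exceeded WT by a log2 fold change of 0.68 in eTreg (SE 0.16, adjusted p = 0.0581) and 0.68 in cTreg (SE 0.17, adjusted p = 0.0563), and neither was called. The eTreg value passed in 3 of the 10 fits without 1 library, at adjusted p down to 0.029, and reached 0.382 at the other end. The cTreg value passed in 1 of the 10, without WT cTreg 1 at 0.0496. Both values also passed with halved counts, the cTreg one at 0.0312, and the eTreg one with the compared groups only.

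The start of Tgfb1 (25686759 to 25687541) and the most covered region in its span (25689018 to 25689981) differed less. The start had 27.6 and 32.9 CPM in FntbKO eTreg, 21.6 and 27.8 CPM in FntbKO cTreg, 26.9, 23.7 and 30.0 CPM in WT eTreg, and 23.3, 19.6 and 25.0 CPM in WT cTreg. The region in the span had 41.4 and 41.6 CPM in FntbKO eTreg, 29.7 and 33.8 CPM in FntbKO cTreg, 35.9, 35.7 and 34.3 CPM in WT eTreg, and 35.4, 33.5 and 31.4 CPM in WT cTreg. At the start the compared groups overlapped, and in the span FntbKO eTreg stood above all other libraries. Neither region was called in any comparison. Over its 3 regions Tgfb1 summed to 102.2 ± 8.84 CPM in FntbKO eTreg and 79.2 ± 1.68 CPM in WT eTreg, a log2 fold change of 0.37 (SE 0.10, adjusted p = 0.0674), not called. It passed under DESeq2, with the compared groups only and in 3 of the 10 fits without 1 library.

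Fgl2 encodes fibrinogen-like protein 2, a secreted suppressor that binds inhibitory Fc receptors. Its single region (chromosome 5, gene 14190; 21372450 to 21372867) covered the start and had 8.01 and 8.06 CPM in FntbKO eTreg, 11.3 and 9.66 CPM in FntbKO cTreg, 11.3, 9.16 and 6.44 CPM in WT eTreg, and 10.3, 7.74 and 11.7 CPM in WT cTreg. The FntbKO eTreg libraries were below the FntbKO cTreg libraries, and all other pairs of groups compared overlapped. The largest log2 fold change was -0.37 for FntbKO eTreg over FntbKO cTreg (SE 0.28, adjusted p = 0.575).

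Gzmb encodes granzyme B, a serine protease that kills target cells after release from granules. Its start was more open in WT eTreg than in WT cTreg libraries. The region over the start and the printed promoter (chromosome 14, gene 14939; 56262068 to 56262571) had 9.61 and 14.6 CPM in FntbKO eTreg, 7.11 and 11.5 CPM in FntbKO cTreg, 15.5, 18.0 and 18.5 CPM in WT eTreg, and 5.58, 10.3 and 8.87 CPM in WT cTreg. All WT eTreg libraries were above every other library, and the FntbKO subsets overlapped. WT eTreg exceeded WT cTreg by a log2 fold change of 1.07 (SE 0.23, adjusted p = 0.0107), lost without WT eTreg 3, WT cTreg 1 or WT cTreg 3 at adjusted p of 0.0597, 0.0713 and 0.0596. Between FntbKO eTreg and FntbKO cTreg it was 0.37 (SE 0.28, adjusted p = 0.572), and for FntbKO eTreg over WT eTreg -0.49 (SE 0.25, adjusted p = 0.443). The interaction, which is the test of whether the subset difference depended on Fntb, was not called. The plasmacytoid dendritic cell markers Siglech, Bst2, Tcf4 and Irf8 had 43 tested regions. In WT eTreg 2 were called higher and 2 lower than in WT cTreg (9.3%, against 3.44% of all tested regions). Near Irf8 a region averaged 20.2 CPM in WT eTreg, 8.76 in WT cTreg, 11.5 in FntbKO eTreg and 6.94 in FntbKO cTreg. Near Siglech it was 1.98, 0, 0.197 and 0.0972 CPM in that order. A Tcf4 region was lower in WT eTreg (5.24 against 12.2 CPM). The part of such cells was not tested.

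The remaining 9 Gzmb regions lay 13.4 to 48.1 kb upstream of the start, and none was called. The most covered of them (56296762 to 56297429) averaged 28.3 ± 2.11 CPM in FntbKO eTreg, 32.8 ± 3.91 CPM in FntbKO cTreg, 29.7 ± 4.26 CPM in WT eTreg and 34.8 ± 3.02 CPM in WT cTreg, with overlapping WT groups. Summed over all 10 regions Gzmb had 97.3 ± 5.37 CPM in WT eTreg and 95.2 ± 2.02 CPM in WT cTreg, a log2 fold change of 0.03 (SE 0.08, adjusted p = 0.884). The sum over the locus did not pass the test.

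Areg encodes amphiregulin, an epidermal growth factor family ligand through which Treg cells act on damaged lung and muscle. Its start (chromosome 5, gene 11839; 91139274 to 91139976) covers the printed promoter with the CRE motif. It had 17.6 and 15.2 CPM in FntbKO eTreg, 9.3 and 11.3 CPM in FntbKO cTreg, 25.2, 15.9 and 18.3 CPM in WT eTreg, and 18.1, 15.6 and 11.4 CPM in WT cTreg. The FntbKO subsets did not overlap, the WT subsets did, and both FntbKO cTreg libraries were below all WT cTreg libraries by a narrow gap. The log2 fold change was 0.65 for FntbKO eTreg over FntbKO cTreg (SE 0.25, adjusted p = 0.185) and -0.52 for FntbKO cTreg over WT cTreg (SE 0.23, adjusted p = 0.33), neither called.

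A second Areg region, 12.6 kb before the start (91126614 to 91127002), was highest in FntbKO eTreg. It had 8.01 and 9.44 CPM in FntbKO eTreg, 3.55 and 5.51 CPM in FntbKO cTreg, 6.02, 3.78 and 4.75 CPM in WT eTreg, and 6.0, 5.5 and 4.65 CPM in WT cTreg. Both FntbKO eTreg libraries were above every other library. Its log2 fold change was 0.92 for FntbKO eTreg over FntbKO cTreg (SE 0.33, adjusted p = 0.157) and 0.86 for FntbKO eTreg over WT eTreg (SE 0.30, adjusted p = 0.223). Over its 3 regions Areg summed to 30.1 and 28.4 CPM in FntbKO eTreg and 15.1 and 19.0 CPM in FntbKO cTreg, a log2 fold change of 0.76 (SE 0.20, adjusted p = 0.0561), and to 35.0, 23.5 and 27.1 CPM in WT eTreg and 28.4, 22.9 and 18.8 CPM in WT cTreg, a log2 fold change of 0.29 (SE 0.16, adjusted p = 0.399). The FntbKO value missed the threshold and passed without FntbKO cTreg 2, WT eTreg 1, WT eTreg 2 or WT cTreg 1, at adjusted p down to 0.0326, and also under DESeq2 and with the compared groups only.

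**Figure D4:**
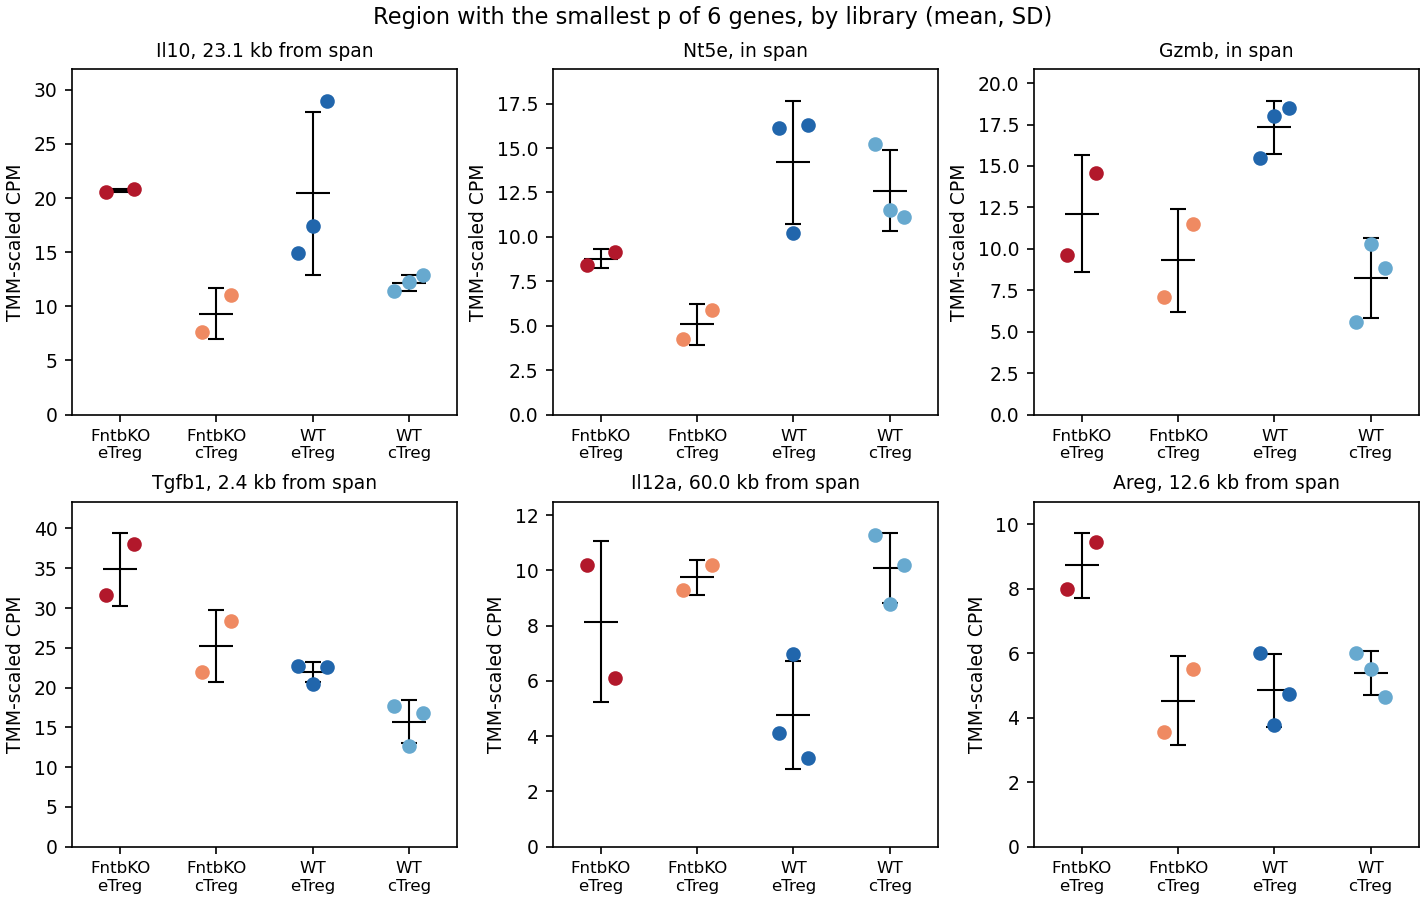
TMM-scaled CPM (y axis, from 0) by group (x axis) of the region with the smallest unadjusted p of Il10, Nt5e, Gzmb, Tgfb1, Il12a and Areg. Points are libraries, and the bars give the mean and SD of 2 FntbKO or 3 WT libraries. The Gzmb start is highest in WT eTreg, at 15.5 to 18.5 CPM, and the Tgfb1 region is higher in both FntbKO groups than in the WT group of the same subset.

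Entpd1 and Nt5e act in sequence: CD39, encoded by Entpd1, removes phosphates from ATP and ADP, and CD73, encoded by Nt5e, turns the resulting AMP into adenosine, which quiets T cells through adenosine receptors. Entpd1 differed little between the groups. All 17 of its regions lay in its span (chromosome 19, gene 12495, 40612366 to 40741602), and none was called in any comparison. Its start (40611992 to 40612589) had 78.5 and 73.4 CPM in FntbKO eTreg, 88.7 and 85.2 CPM in FntbKO cTreg, 87.7, 78.9 and 77.3 CPM in WT eTreg, and 92.7, 70.5 and 79.0 CPM in WT cTreg. The FntbKO eTreg libraries were below the FntbKO cTreg libraries, and the WT subsets overlapped. The summed counts gave 250.8 ± 17.2 CPM in FntbKO eTreg, 264.5 ± 1.82 CPM in FntbKO cTreg, 249.0 ± 12.5 CPM in WT eTreg and 247.8 ± 7.83 CPM in WT cTreg. The log2 fold changes of the sum lay between -0.08 and 0.09 in the 4 pairwise comparisons, with SE of 0.06 to 0.08.

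At a second annotated start of Entpd1 (40659603 to 40659872) there were 3.6 and 5.02 CPM in FntbKO eTreg, 1.23 and 3.11 CPM in FntbKO cTreg, 3.98, 5.38 and 2.37 CPM in WT eTreg, and 4.74, 2.06 and 3.59 CPM in WT cTreg. The FntbKO eTreg libraries were above the FntbKO cTreg libraries, the other groups compared overlapped, and no difference was called. The smallest p of the gene was in a thin region (40617931 to 40618148) with 100 counts over all libraries, 0.4 and 0.885 CPM in FntbKO eTreg, 0.547 and 1.36 CPM in FntbKO cTreg, 2.41, 2.59 and 1.19 CPM in WT eTreg, and 0.419, 0.344 and 0.633 CPM in WT cTreg. WT eTreg was above every WT cTreg library. Its log2 fold change for WT eTreg over WT cTreg was 2.09 (SE 0.65, adjusted p = 0.0687), not called.

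Nt5e was lower in FntbKO cTreg than in WT cTreg cells across the locus, and this was the only member called on summed counts. Over its 15 regions (chromosome 9, gene 23959, span 88327609 to 88372089) it had 143.5 and 139.5 CPM in FntbKO eTreg, 118.0 and 117.5 CPM in FntbKO cTreg, 165.6, 153.1 and 178.6 CPM in WT eTreg, and 170.3, 163.1 and 164.4 CPM in WT cTreg. Every FntbKO library was below every WT library, and FntbKO cTreg was the lowest group. The log2 fold change for FntbKO cTreg over WT cTreg was -0.49 (SE 0.08, adjusted p = 0.00254). By this test 2.3% of all 15895 genes were called, 1.43% lower. The call held in all 10 fits without 1 library, at adjusted p between 0.00274 and 0.0449, and in the 10 other alternatives run. For FntbKO eTreg over WT eTreg the log2 fold change was -0.23 (SE 0.08, adjusted p = 0.155), not called, with 0.736% of genes called in that comparison. Between the subsets it was 0.26 in FntbKO (SE 0.09, adjusted p = 0.129; 1.86% of genes called) and -0.00 in WT (SE 0.07, adjusted p = 0.991; 3.17% of genes called). The interaction was 0.27 (SE 0.11), with an unadjusted p of 0.0252 and an adjusted p of 1. Regions of the 3 B cell markers that had any (Cd79a, Pax5 and Ebf1) summed to 54.9 to 63 CPM in FntbKO eTreg, 48.9 to 50.9 CPM in FntbKO cTreg, 67.3 to 75 CPM in WT eTreg and 61.7 to 73.1 CPM in WT cTreg. The myeloid markers given beside Il10 were also lower in FntbKO than in WT libraries of the same subset, with a median log2 fold change over their 21 regions of -0.69 for FntbKO cTreg over WT cTreg and -0.43 for FntbKO eTreg over WT eTreg. Both marker sums were lowest in FntbKO cTreg, as was Nt5e, and their part in the Nt5e values was not tested.

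Of the 15 Nt5e regions 13 had a negative log2 fold change for FntbKO cTreg over WT cTreg, with a median of -0.57, and in 10 of them both FntbKO cTreg libraries lay below all WT cTreg libraries, compared with 14.9% of all tested regions. The called region lay in the span (88332418 to 88332858), with 8.41 and 9.15 CPM in FntbKO eTreg, 4.24 and 5.9 CPM in FntbKO cTreg, 16.1, 10.2 and 16.3 CPM in WT eTreg, and 15.2, 11.5 and 11.1 CPM in WT cTreg. All FntbKO libraries were below all WT libraries. FntbKO cTreg over WT cTreg gave a log2 fold change of -1.28 (SE 0.26, adjusted p = 0.0175), which did not pass when FntbKO cTreg 1 (0.336) or WT cTreg 1 (0.0599) was left out. It was -0.67 for FntbKO eTreg over WT eTreg (SE 0.26, adjusted p = 0.269).

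The Nt5e start, which holds the printed promoter (88327216 to 88327999), had 37.6 and 32.7 CPM in FntbKO eTreg, 25.7 and 25.0 CPM in FntbKO cTreg, 43.1, 33.5 and 43.9 CPM in WT eTreg, and 45.1, 30.9 and 39.2 CPM in WT cTreg. Both FntbKO cTreg libraries were below every other library, with a log2 fold change of -0.61 against WT cTreg (SE 0.15, adjusted p = 0.0623), not called. It passed without WT cTreg 2, at an adjusted p of 0.0216, and also with total-count scaling and halved counts. A distal region 53.9 kb before the start (88273270 to 88273698) was called between the WT subsets, with 9.21 and 7.08 CPM in FntbKO eTreg, 4.1 and 3.76 CPM in FntbKO cTreg, 15.9, 10.6 and 18.0 CPM in WT eTreg, and 6.14, 8.94 and 6.76 CPM in WT cTreg. The eTreg libraries were above the cTreg libraries in each genotype, and the FntbKO libraries were below the WT libraries in each subset. Between the genotypes its log2 fold change was -0.88 in cTreg (SE 0.29, adjusted p = 0.175) and -0.87 in eTreg (SE 0.27, adjusted p = 0.155), neither called. Between the subsets it was 1.02 for WT eTreg over WT cTreg (SE 0.24, adjusted p = 0.0164) and 1.03 for FntbKO eTreg over FntbKO cTreg (SE 0.31, adjusted p = 0.0899). The WT call was lost when WT eTreg 1 or 3, or WT cTreg 1 or 3, was left out, at adjusted p between 0.0784 and 0.115.

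**Figure D5:**
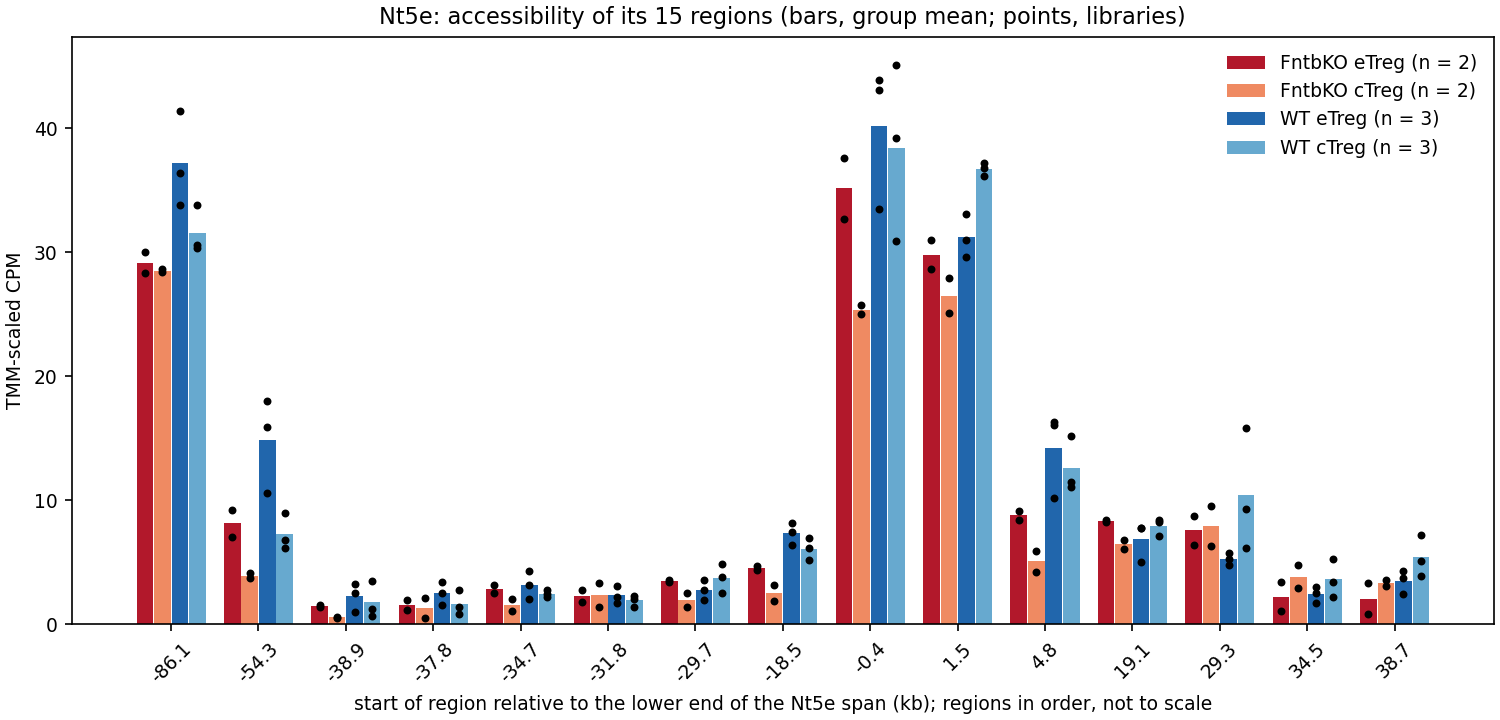
TMM-scaled CPM (y axis, from 0) of the 15 Nt5e regions, in order along the chromosome and labelled by the distance of their start from the lower end of the Nt5e span in kb (x axis, not to scale). Bars are group means of 2 FntbKO or 3 WT libraries and points are libraries. FntbKO cTreg has a lower bar than WT cTreg in 13 of the 15 regions, the exceptions being thin regions with 2.34 and 3.85 CPM in FntbKO cTreg.

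The genes with profiles most like Nt5e over the 10 libraries were Mtarc2 and Dusp23, at distances of 0.0661 and 0.0696 on the centred log2 scale, compared with a median of 0.24 over 4120 genes of like level. For Areg they were Fkbp14 and Grik1 (0.127 and 0.14), for Tgfb1 Klf4 and Kdm4d (0.0774 and 0.0801), for Gzmb Mrm1 and Galnt6 (0.0375 and 0.0385), and for Entpd1 Efcab11 and Irf2bpl (0.0367 and 0.0394). For Il12a they were Chst3 and Aldh4a1 (0.0218 and 0.0353), for Ebi3 Kctd8 and Nacc2 (0.269 and 0.276), and for Fgl2 Gpr173 and Nit1 (0.136 and 0.147). Gzmb, Entpd1 and Il12a had nearly flat profiles, with a root mean square of 0.0679, 0.0608 and 0.0925 around their own means, against 0.459 for Il10. Their median distances were 0.139, 0.116 and 0.158. Their small distances are therefore not closer matches than those of Il10. No member was among the 2 nearest profiles of another member. This says little, since each was ranked among 2066 to 6419 genes and members of unlike level were left out.

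Genes that work with the members were read from lists of partners. These lists were chosen with earlier results of these data known. A share of calls above that of all tested regions may follow from that choice. Of 8 inducers of Il10, which had 106 regions, 1 region was higher and 1 lower in WT eTreg than in WT cTreg, 2 were higher and 1 lower in FntbKO eTreg than in FntbKO cTreg, and 1 was higher and 1 lower in FntbKO cTreg than in WT cTreg. The calls made up 1.89%, 2.83% and 1.89% of the 106 regions, compared with 3.44%, 1.35% and 0.568% of all tested regions. The median log2 fold changes of the 106 regions were -0.02, 0.08 and -0.05 in these comparisons. A region 35.7 kb from Maf, a transcription factor that activates Il10, averaged 16.3 ± 0.918 CPM in FntbKO eTreg, 5.67 ± 2.61 CPM in FntbKO cTreg, 26 ± 4.95 CPM in WT eTreg and 10 ± 1.35 CPM in WT cTreg. Its log2 fold change was 1.37 for WT eTreg over WT cTreg (SE 0.20, adjusted p = 0.000762) and 1.45 for FntbKO eTreg over FntbKO cTreg (SE 0.26, adjusted p = 0.00731). The lower regions went the other way. A region in the span of Irf4 averaged 25.3 ± 4.9 CPM in WT eTreg and 43.9 ± 4.71 CPM in WT cTreg (-0.78, SE 0.13, adjusted p = 0.00239). A region 16.9 kb from Ahr was lower in FntbKO eTreg than in FntbKO cTreg (-1.43, SE 0.37, adjusted p = 0.0495). Another Maf region, 64.1 kb away, fell to 7.64 ± 2.3 CPM in FntbKO cTreg, against 18.4 ± 2.21 CPM in WT cTreg, a log2 fold change of -1.22 (SE 0.22, adjusted p = 0.00564). In the same comparison a region 9.4 kb from Prdm1, which encodes the repressor Blimp-1, was higher at 10.2 ± 1.18 CPM in FntbKO cTreg against 3.35 ± 1.6 CPM in WT cTreg (log2 fold change 1.65, SE 0.36, adjusted p = 0.0257).

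Of 11 genes that store or activate TGF-beta, with 73 regions, 3 regions were higher and 3 lower in WT eTreg than in WT cTreg (median log2 fold change -0.03). Between FntbKO eTreg and FntbKO cTreg 1 was higher in FntbKO eTreg (median -0.05). The calls made up 8.22% and 1.37% of the 73 regions, compared with 3.44% and 1.35% of all tested regions. Those between the WT subsets included a region near Itgav, an integrin chain that releases active TGF-beta, with 40.1 ± 6.85 CPM in WT eTreg and 22.8 ± 0.216 CPM in WT cTreg (log2 fold change 0.81, SE 0.15, adjusted p = 0.00367), a region near Furin, the protease that cleaves pro-TGF-beta (0.79, SE 0.16, adjusted p = 0.00621), and a lower region near Lrrc32, which encodes the TGF-beta docking protein GARP (-0.81, SE 0.16, adjusted p = 0.00578). In FntbKO cTreg another region of Lrrc32, in its span, averaged 14.9 ± 3.49 CPM, against 28.6 ± 0.804 CPM in WT cTreg (log2 fold change -0.92, SE 0.17, adjusted p = 0.00865). It was the 1 called among the 73 (1.37%, compared with 0.568% of all tested regions, median -0.13).

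Of 11 cytolysis genes other than Gzmb, with 63 regions, 2 regions were higher and 1 lower in WT eTreg than in WT cTreg, and 3 were higher in FntbKO eTreg than in FntbKO cTreg (median log2 fold changes 0.07 and 0.01). In each comparison 4.76% of the 63 regions were called, against 3.44% and 1.35% of all tested regions. A region 2.2 kb from Gzmk, another granzyme gene, averaged 18.5 ± 2.43 CPM in FntbKO eTreg and 7.95 ± 1.96 CPM in FntbKO cTreg (log2 fold change 1.20, SE 0.23, adjusted p = 0.00857), and 24.3 ± 1.48 CPM in WT eTreg and 13.8 ± 2.98 CPM in WT cTreg (0.82, SE 0.18, adjusted p = 0.0115). Of the 12 adenosine genes other than Entpd1 and Nt5e, 11 had 75 regions, of which 2 were higher and 3 lower in WT eTreg than in WT cTreg (median log2 fold change -0.06). That was 6.67% of the 75 regions, against 3.44% of all tested regions. A region in the span of Dpp4, a gene of this list, averaged 19.7 ± 0.286 CPM in WT eTreg and 37.6 ± 6.75 CPM in WT cTreg (log2 fold change -0.94, SE 0.14, adjusted p = 0.000737). None of the adenosine regions was called between the genotypes, compared with 0.568% of all tested regions in cTreg and 0.353% in eTreg. With such shares an absence of calls among 75 regions says little about these genes.

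Of 13 genes of the epidermal growth factor family and of tissue repair, 12 had 51 regions, and 2 were higher in WT eTreg than in WT cTreg and 5 in FntbKO eTreg than in FntbKO cTreg, with none lower (median log2 fold change 0.16 in each). The calls made up 3.92% and 9.8% of the 51 regions, compared with 3.44% and 1.35% of all tested regions. Both WT calls lay near Il1rl1, and the 5 FntbKO calls belonged to 4 genes. A region about 11 kb from Il1rl1, which encodes the interleukin-33 receptor that marks amphiregulin-producing Treg cells, averaged 14.4 ± 2.84 CPM in FntbKO eTreg and 3.1 ± 1.67 CPM in FntbKO cTreg (log2 fold change 2.13, SE 0.40, adjusted p = 0.0158), and 18.7 ± 5.04 CPM in WT eTreg and 7.13 ± 3.54 CPM in WT cTreg (1.42, SE 0.31, adjusted p = 0.02). Of 6 receptor genes for interleukin-10 and interleukin-35, with 55 regions, 2 were lower in WT eTreg than in WT cTreg and 1 lower in FntbKO eTreg than in FntbKO cTreg (medians -0.25 and 0.03). At 3.64% and 1.82% of the 55 regions, these shares were near those of all tested regions, 3.44% and 1.35%. Of the FGL2 receptor list 2 of 3 genes had 4 regions, none called in any comparison. No region of these lists was called for FntbKO eTreg over WT eTreg, and none in the interaction, compared with 0.353% and 0% of all tested regions.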

How the data were processed

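ATAC-seq counts were analysed for 10 libraries in 4 groups. The deposited table holds raw read counts per region, without normalization. The submitters' processing notes list MACS2 2.1.1, Trimmomatic 0.36, Picard 2.9.4, bedtools and SAMtools, and give the builds as GRCm38 and mm10. No aligner is given in the sources used here. Even values made up 66.73% to 79.24% of a library's counts, which would follow if both mates of a pair were counted, so halved counts were an alternative. Region coordinates are as deposited, counted from 0 or 1, which is not stated.

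Regions were matched to RefSeq protein-coding spans of GRCm38.p6. After TMM scaling, all 10 libraries entered the quasi-likelihood test of edgeR 4.0.16 under R 4.3.3, with 1 mean per group, 6 residual degrees of freedom and filterByExpr. Calls needed an adjusted p (Benjamini-Hochberg) under 0.05, taken over 76216 regions or, for the summed counts of a gene, over 15895 genes. CPM values are TMM-scaled, and SE come from the fit. The fitting step was tested on simulated data. Likeness is the root mean square distance of log2 CPM, with 0.5 added, centred over the libraries, among genes with 0.5 to 2 times the member's level. Full values are given for called regions and, per member, for the most covered region, the start region and the region with the smallest p. The alternatives were DESeq2 1.42.0, other scalings, filters and distances, halved counts, a replicate block, fits of the compared groups only and fits without libraries. The members and lists were chosen with earlier results of these data known.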

Additional observations from a re-analysis of the deposited data

How the results depend on the processing

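Of 1069 refits of 56 single values (the named regions and the summed genes), 967 kept the direction and side of the threshold, 51 no longer passed, 51 newly passed and 0 changed direction. Of the 11 called single values, 1 passed without each library in turn, the summed Nt5e value between FntbKO cTreg and WT cTreg. Without 1 library at a time the member regions called ranged from 0 to 9 for WT eTreg over WT cTreg, 0 to 4 for FntbKO eTreg over FntbKO cTreg, 0 to 3 for FntbKO cTreg over WT cTreg and 0 to 1 for FntbKO eTreg over WT eTreg. Summed genes called ranged from 0 to 1, 0 to 3, 1 to 2 and 0 to 1 in the same order. For WT eTreg over WT cTreg, the 7 regions became 2 within 10 kb, and the 0 summed genes became 1 within 10 kb, with the compared groups only, and without WT cTreg 2 and FntbKO cTreg 1 together. For FntbKO eTreg over FntbKO cTreg, the 2 regions became 4 with DESeq2, 1 with total-count scaling, 0 within 10 kb and 0 without the 2 named libraries, and the 0 summed genes became 1 with DESeq2, 1 with the compared groups only and 3 with the replicate block. For FntbKO cTreg over WT cTreg, the 1 region became 2 with total-count scaling, 3 with halved counts, 4 with the replicate block and 0 without the 2 named libraries. For FntbKO eTreg over WT eTreg, the 0 regions became 1 with halved counts, the replicate block, the compared groups only and without the 2 named libraries, and the 0 summed genes became 1 with DESeq2, the replicate block, the compared groups only and without the 2 named libraries. The cause was not tested. With the replicate block, WT eTreg over WT cTreg gave 10 regions and FntbKO eTreg over FntbKO cTreg 3. It ended the call of the Il10 region at 131003119 between the WT subsets (adjusted p = 0.0932). Same-numbered eTreg and cTreg libraries correlated in their deviations from the group means at 0.299, 0.107 and 0.0464 in WT and 0.315 in FntbKO. Deviations in a group of 2 libraries mirror each other, so 0.315 holds for both FntbKO pairs and is 1 value. Same-numbered cTreg libraries of the 2 genotypes correlated at 0.2 and 0.237, but same-numbered eTreg libraries only at 0.0759 and -0.00608. WT cTreg 2 correlated more with WT eTreg 3 (0.117) than with WT eTreg 2. Nothing in the labels says what the shared numbers stand for. The interaction called 0 in every setting run, and it has no fit with the compared groups only. Groups of 2 or 3 libraries and thin regions limit what could be called.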
